A study of Mus musculus with 4 samples.

Results

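The genes described here encode the Hsp70 and Hsp110 chaperones of mouse motor neurons. There were 10 of them, Hspa1a, Hspa1b, Hspa2, Hspa4, Hspa4l, Hspa8, Hspa12a, Hspa13, Hspa14 and Hsp110, among the 27189 gene entries of the series. Per library, 17116 to 17398 of these entries had a value above 0. Of the 10, 9 were found by the symbol in the expression tables, where Hsp110 is the name used for Hsph1, and Hspa13 was found under its older name Stch. RNA was sequenced from large cell bodies of ventral horn motor neurons cut out of spinal cord sections by laser, in 2 mice with a wild-type SOD1-YFP transgene (strain 592) and 2 mice with a G85R SOD1-YFP transgene (strain 737), all 3 months old. Each of the 4 libraries came from 1 mouse, and the comparison asks which transcripts differ in motor neurons before the G85R animals become paralyzed. Both transgenes are genomic fragments of human SOD1, which encodes superoxide dismutase 1, joined to the gene for yellow fluorescent protein, and both strains were kept on a C57BL/6J x SJL/J background. All 4 animals therefore made a SOD1-YFP fusion protein, and no animal without a transgene was included. The G85R strain carries many more copies of its transgene and is a single line, so the mutation, the copy number and the strain differed together and cannot be told apart. Cells with large, bright aggregates were not captured from G85R animals, so the G85R values describe the remaining cell bodies.

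Hsp70 proteins bind exposed hydrophobic stretches of unfolded proteins and release them in a cycle driven by ATP. J proteins deliver substrates to Hsp70 and start ATP hydrolysis, and nucleotide exchange factors reopen the cycle by removing ADP. Hsp110 proteins are distant relatives of Hsp70 that act as its main nucleotide exchange factors in the cytosol and, with Hsp70 and a J protein, can dissolve protein aggregates. Several of these genes are switched on in the heat shock response by the transcription factor HSF1, which binds repeats of the 3 bases GAA and their complement TTC in alternating order. Motor neurons are known for a weak heat shock response.

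Because HSF1 acts through this element, the promoters of the family were searched for it on both strands, in the RefSeq sequences from 250 bases before to 50 bases after each start site. A facing pair of units was searched as GAANNTTC or TTCNNGAA, and a run of 3 alternating units as a separate pattern that contains such a pair. The table held a promoter for 8 of the 10 genes, all but Hspa8 and Hspa13. A facing pair was present in the promoters of Hspa1a, Hspa1b and Hsp110, against 15.1% of all 32851 promoters in the table, and 3 alternating units were present only in those of Hsp110 among the 8 genes, against 0.60% of all promoters. The stretches around the pair of Hspa1a and Hspa1b and the run of Hsp110 are printed in the direction of transcription, with the units in capitals. Hspa1a and Hspa1b have the same 30 bases around a single facing pair, 104 to 97 bases before their starts. The run of 3 units in Hsp110 lies 36 to 48 bases after its first annotated start. The first promoter of Hsp110 holds 3 facing pairs, and not all of them lie in the stretch printed.
Hspa1a: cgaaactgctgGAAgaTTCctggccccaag
Hspa1b: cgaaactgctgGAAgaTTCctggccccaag
Hsp110: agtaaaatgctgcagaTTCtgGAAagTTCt
Placed by exact match on the NCBIM37 assembly (mm9), these stretches are chr17:35109187-35109216 for Hspa1a, chr17:35096269-35096298 for Hspa1b and chr5:150438862-150438891 for Hsp110, all on the minus strand. A match of letters is a description and does not show that a factor binds there, and a promoter with no match lacks only these letters in this window.

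The depth and purity of the libraries were as follows. The estimated number of reads on genes was 21560318 to 25186594 per library, and an RPKM (reads per kilobase of transcript, scaled to the mapped reads of the library) of 1 read had a median over genes of 0.0195 to 0.0226. The 6 motor neuron markers, among them Chat for choline acetyltransferase, summed to an RPKM of 1191 to 1642, with no marker at 0 in any library and none called different between genotypes. Of these 6, 5 had a lower mean in G85R, with a median difference of −0.21 on the log2 scale. Of the 11530 genes tested below, 45.3% had a positive difference. In Chat, Mnx1 and Prph both G85R libraries lay below both wild-type ones (lowest unadjusted p by limma, 0.045 for Prph). The share of all tested genes lying below in this way was not counted. Markers of other cells were also present. The 6 astrocyte markers summed to 33.8 and 37.1 in wild-type against 124 and 49.0 in G85R, and Gfap made most of that difference, with an RPKM of 11.5 and 17.1 against 91.9 and 28.4. The 6 microglial markers summed to 11.7 in each wild-type library and to 26.7 and 12.4 in G85R, the 6 oligodendrocyte markers to 786 to 1027, and the 5 endothelial markers to 6.97 to 9.27. The red blood cell markers Hbb-b1 and Alas2 together were at 1.82 and 2.10 in wild-type against 11.4 and 10.8 in G85R, and Hbb-b1 was called (log2 difference 2.42, SE 0.14, limma adjusted p = 0.0017). The astrocyte, microglial and red blood cell sums were higher in both G85R libraries, as were 5 of the family members, and the part of these and of the motor neuron markers in the results below was not tested. In bulk RNA such as this, fewer cells of a type and less RNA per cell cannot be told apart.

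**Figure D1:**
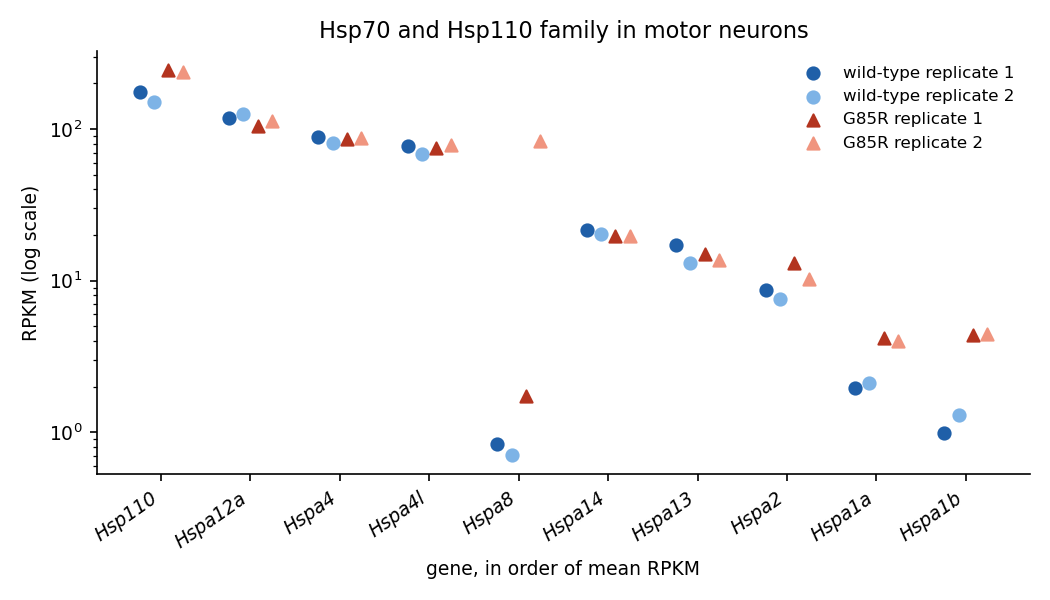
RPKM of the 10 genes in each of the 4 libraries, on a log scale, with genes in order of their mean RPKM over the libraries. Circles are wild-type and triangles G85R; Hspa8 in G85R replicate 2, at 82.9, stands far above its other 3 libraries, and Hsp110, Hspa2, Hspa1a and Hspa1b lie higher in both G85R libraries.

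The members spanned a wide range of levels. Hsp110 had the highest mean RPKM over the 4 libraries, 203 ± 46.8 (SD, n = 4), followed by Hspa12a at 115 ± 8.68, Hspa4 at 85.7 ± 3.21 and Hspa4l at 74.7 ± 4.32. Hspa14 was at 20.4 ± 0.91, Hspa13 at 14.8 ± 1.84 and Hspa2 at 9.88 ± 2.44. Hspa1a at 3.06 ± 1.19 and Hspa1b at 2.78 ± 1.90 had the lowest means. Of their 75-base windows, 70.3% and 74.8% match a further place in the genome with at most 2 mismatches. How such reads were treated is not given in the sources used here, so the last places in the order are uncertain. RPKM are scaled by transcript length, so that levels can be set side by side between genes. The ranges over libraries of Hspa13 and Hspa2 overlapped, as did those of Hspa1a and Hspa1b, and these neighbors in the order were not separated. Hspa8 had no usable place in the order, because its values ran from 0.709 to 82.9 and overlapped those of its neighbors Hspa4l and Hspa14. In both wild-type libraries and in G85R replicate 1, Hspa8 was the lowest of the members.

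Genotypes were compared with limma on log2(RPKM + 0.1) over the 11530 genes whose RPKM averaged 1 or more, all 10 members included, and the threshold for a call was an adjusted p (Benjamini-Hochberg, over all tested genes) under 0.05. Differences below are G85R minus wild-type on this scale, which slightly understates the change of low genes. Of all tested genes 0.642% were called in either direction, and 0.269% were called higher in G85R. Of the 10 members, 1 was called, Hspa1b, and it was higher in G85R. An unadjusted p under 0.05 with a higher value in G85R was found for 5 members (Hspa1a, Hspa1b, Hspa2, Hspa8 and Hsp110), against 4.66% of all tested genes. In the same 5 members both G85R libraries lay above both wild-type libraries, against 17.3% of all tested genes. Among these 5, Hspa8 averaged 0.773 in wild-type, below the minimum of 1, and passed it through its G85R values. Hspa1a and Hspa1b share most of their sequence, so they do not count as separate results. Hspa12a and Hspa14 had both G85R libraries below wild-type, and the share of all tested genes lying below in this way was not counted. In Hspa4, Hspa4l and Hspa13 the genotypes overlapped. The median difference of the members was 0.30, and that of all tested genes was −0.02.

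**Figure D2:**
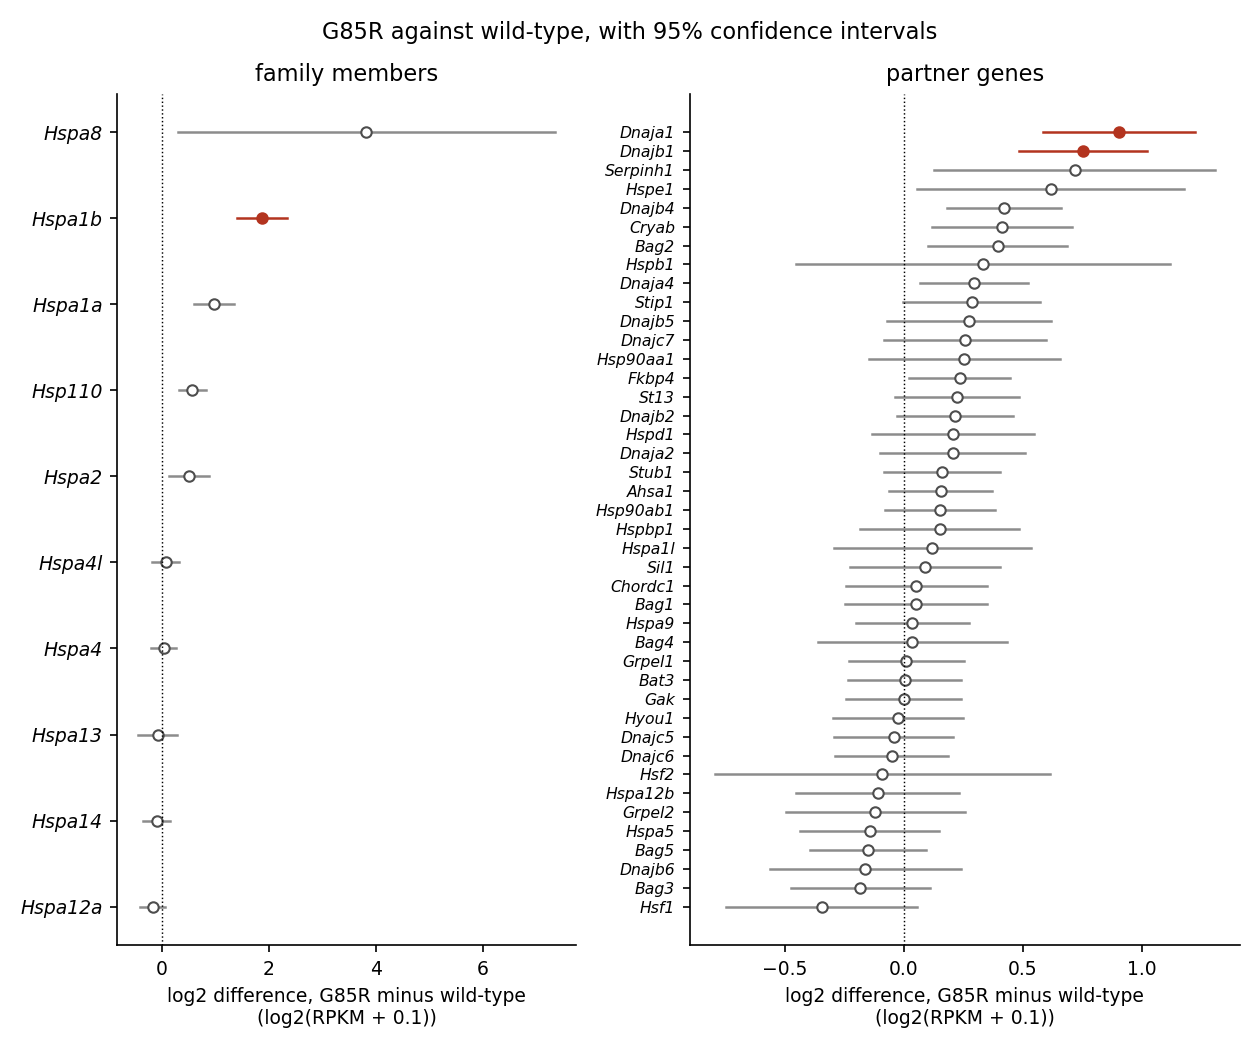
Difference between G85R and wild-type on the log2(RPKM + 0.1) scale for the 10 members (left) and the 42 partner genes (right), with limma 95% confidence intervals from 2 libraries per genotype. Filled red points are called at an adjusted p under 0.05 (Hspa1b, Dnaja1 and Dnajb1), and the interval of Hspa8, from 0.30 to 7.35, is the widest among the members.

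The stress-inducible Hsp70 genes had low RPKM values in wild-type motor neurons. Of these, Hspa1b rose in G85R, and its near copy Hspa1a was higher in both G85R libraries without passing the test. Hspa1b, which is nearly silent in many unstressed cells, had RPKM values of 0.986 and 1.29 in wild-type against 4.40 and 4.44 in G85R, from an estimated 81 and 113 reads against 330 and 354. Its genotypes did not overlap, and it rose by 1.88 (SE 0.19, 95% interval 1.42 to 2.34, limma adjusted p = 0.013), a 3.67-fold change on that scale. The call was lost with no minimum RPKM (adjusted p = 0.30) and with a log-linear likelihood ratio test in place of limma (adjusted p = 1), and with a minimum mean RPKM of 5 the gene was not tested. Hspa1a, which encodes a nearly identical protein, had RPKM values of 1.94 and 2.12 in wild-type against 4.20 and 3.97 in G85R. Both G85R values were above both wild-type ones, 2.01 times by the ratio of means, with a difference of 0.98 (SE 0.16, 95% interval 0.60 to 1.35) and an unadjusted p of 0.00049, but Hspa1a was not called (limma adjusted p = 0.061).

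Hspa1a and Hspa1b share most of their sequence, so that their separate values are uncertain. Both are genes of a single exon on the minus strand of chromosome 17, at chr17:35106144-35109069 for Hspa1a and chr17:35093381-35096183 for Hspa1b. Of all windows of 75 bases, the length of a read, 70.3% in Hspa1a and 74.8% in Hspa1b also matched a further place in the genome with at most 2 mismatches, and how the reads of such windows were divided is not given in the sources used here. The sum of both genes does not depend on that division between them. It was at an RPKM of 2.93 and 3.41 in wild-type against 8.60 and 8.41 in G85R, and it rose by 1.40 (SE 0.14, limma adjusted p = 0.011), or 2.64-fold. Within the sum, the share of Hspa1b was 33.7% and 37.9% in wild-type against 51.1% and 52.8% in G85R. The ratio of Hspa1b to Hspa1a thus differed by 0.90 (SE 0.13) on the log2 scale, a comparison chosen after the values were seen, and the smallest two-sided p that an exact permutation test of 2 against 2 libraries can give, 0.333, was reached. Hspa1l, a testis form of Hsp70 in the same cluster of genes, was at an RPKM of 3.24 and 4.27 in wild-type against 3.99 and 4.12 in G85R, with overlapping genotypes.

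Hspa8, which encodes the constitutive Hsc70 that most cells carry in large amounts, had values that differed too widely between libraries to give 1 level for the gene. Its RPKM was 0.837 and 0.709 in wild-type, 1.73 in G85R replicate 1 and 82.9 in G85R replicate 2, from an estimated 57, 52, 108 and 5509 reads. A single library was thus 48.0 times the next. Only 3 of the 11530 tested genes had 1 library more than 10 times each of the others, the other two being AK192194 in wild-type replicate 2 and Hunk in G85R replicate 1. The limma difference was 3.82 (SE 1.49, adjusted p = 0.42), it was 1.07 without G85R replicate 2, and it was 6.58, and called, without G85R replicate 1. Of the windows of 75 bases in the Hspa8 transcript (chr9:40609067-40613283, plus strand), 83.3% matched 1 or more of 13 further places in the genome with at most 2 mismatches, the highest share among the members. The part of these copies in the low and the uneven values was not tested.

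**Figure D3:**
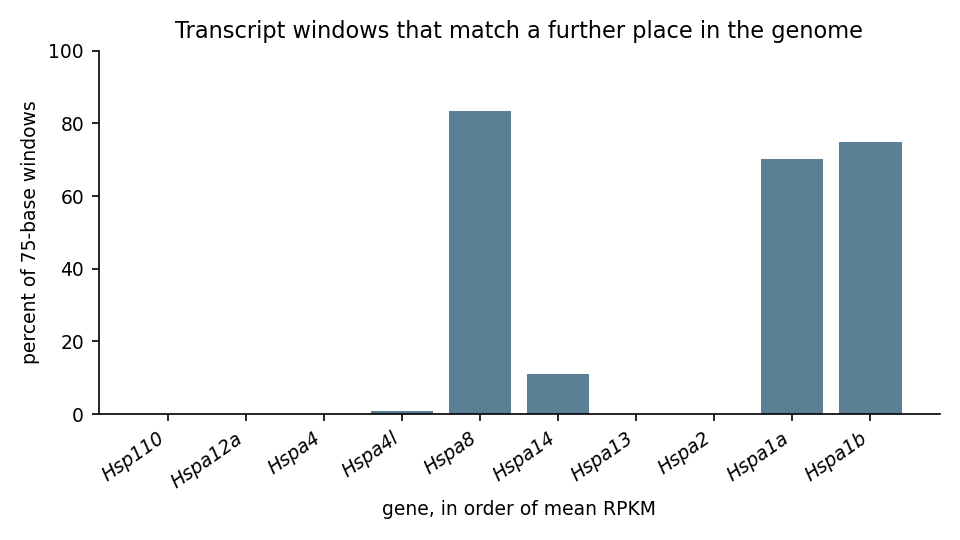
Percent of all 75-base windows of each member's longest coding transcript that match a further place in the mouse genome (NCBIM37) with at most 2 mismatches. Hspa8 (83.3%), Hspa1b (74.8%) and Hspa1a (70.3%) stand apart from Hspa14 (11.0%), Hspa4l (0.8%) and the other 5 members (0.0%).

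Hspa2, an Hsp70 best known from spermatogenesis and also made in the nervous system, had no shared windows (chr12:77505163-77507921, plus strand). Its RPKM was 8.67 and 7.52 in wild-type against 13.2 and 10.2 in G85R. Both G85R libraries were above both wild-type ones, with a difference of 0.51 (SE 0.16) and an unadjusted p of 0.015 by limma, and Hspa2 was not called (limma adjusted p = 0.31).

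The Hsp110 genes were abundant, and Hsp110 was the one of the 3 whose genotypes were separate. Hsp110, whose product is induced by heat and works with Hsc70 in the cytosol, had RPKM values of 175 and 151 in wild-type against 245 and 240 in G85R, from an estimated 17066 to 24669 reads per library. The G85R libraries were 1.49 times the wild-type ones by the ratio of means, with a difference of 0.57 (SE 0.11, 95% interval 0.32 to 0.83) and an unadjusted p of 0.0010. Hsp110 was not called (limma adjusted p = 0.090). The gene lies at chr5:150416862-150438951 on the minus strand, its longest coding transcript has 18 exons, and none of its windows matched elsewhere.

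Hspa4 (Apg-2) and Hspa4l (Apg-1, or Osp94), the other cytosolic Hsp110 proteins, overlapped between genotypes. Hspa4 was at 88.0 and 81.0 in wild-type against 86.3 and 87.4 in G85R, and its difference of 0.04 had a 95% interval from −0.19 to 0.27. Hspa4l was at 76.7 and 68.7 in wild-type against 74.6 and 78.7 in G85R, and its difference of 0.08 had a 95% interval from −0.17 to 0.33. Hspa4 lies at chr11:53073316-53113959 on the minus strand and Hspa4l at chr3:40548417-40600025 on the plus strand, each with 19 exons in its longest coding transcript. The direction of both differences was set by 1 library, since without wild-type replicate 2 they became −0.02 and −0.002.

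Whether Hsp110 changed more than its relatives was tested on their ratios within a library, in which the scaling of the library cancels. The ratio of Hsp110 to Hspa4 was 1.99 and 1.87 in wild-type against 2.84 and 2.74 in G85R, a log2 difference of 0.53 (SE 0.05). The ratio of Hsp110 to Hspa4l was 2.28 and 2.20 in wild-type against 3.29 and 3.04 in G85R, a log2 difference of 0.50 (SE 0.06). In both, the genotypes were separated by more than the spread between replicates, and the exact permutation test reached 0.333, the smallest two-sided p it can give with 2 libraries against 2. The ratio of Hspa4 to Hspa4l differed by −0.04 (SE 0.04, exact permutation p = 0.667), with overlapping genotypes. Hsp110 therefore made up 51.5% and 50.3% of the summed RPKM of the 3 genes in wild-type against 60.4% and 59.0% in G85R, while the sum itself was 340 and 301 in wild-type against 406 in each G85R library.

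**Figure D4:**
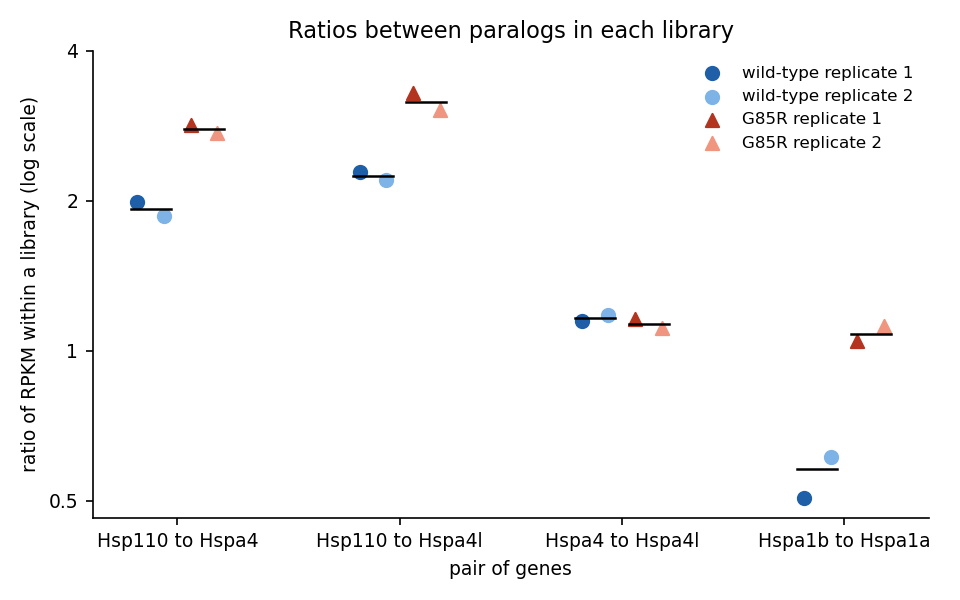
Ratio of RPKM between 2 members within each library, on a log scale; circles are wild-type, triangles G85R, and black lines the mean log ratio of each genotype. The ratios of Hsp110 to Hspa4 and to Hspa4l and of Hspa1b to Hspa1a are higher in both G85R libraries, and that of Hspa4 to Hspa4l overlaps.

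The more distant members did not pass the test. Hspa12a, an atypical Hsp70 enriched in brain, had RPKM values of 119 and 125 in wild-type against 105 and 113 in G85R. Its G85R values lay below the wild-type ones, with a difference of −0.16 (95% interval −0.40 to 0.07, limma adjusted p = 0.62). Hspa13, a microsome-associated form known as Stch, was at 17.3 and 13.1 in wild-type against 15.0 and 13.7 in G85R, a difference of −0.07 that became 0.13 without wild-type replicate 1. Hspa14, a ribosome-associated Hsp70, was at 21.7 and 20.3 in wild-type against 19.8 and 19.7 in G85R, a difference of −0.09 (95% interval −0.34 to 0.17). Hspa12a lies at chr19:58870241-58935474, Hspa13 at chr16:75755435-75767066 and Hspa14 at chr2:3406122-3430086, all on the minus strand. A lower entry of the symbol Hspa14 was at 0.629 to 0.733 in the 4 libraries and was below the minimum for testing.

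The 5 tested genes whose profile over the 4 libraries was most like that of Hsp110, by the root mean square distance of centered log2 values, were Tfrc, Ccdc99, Tnfrsf13c, AK021143 and Nudt19. Tfrc, the transferrin receptor, was the nearest at a distance of 0.019, with an RPKM of 53.4 and 44.5 in wild-type against 73.1 and 72.3 in G85R. The other 4 lay at 0.038 to 0.046, and the likeness rests on 4 libraries. Of the other members Hspa2 was the nearest to Hsp110, at a distance of 0.12 and rank 126 among the tested genes.

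Genes that work with Hsp70 or belong to the same stress response were described by a list of 42 partners, all of them tested. Of these, 2 were called higher in G85R and 0 lower, against 0.269% of all tested genes called higher. An unadjusted p under 0.05 by limma with a higher value in G85R was found for 9, against 4.66% of all tested genes. With a lower value it was found for 0. Both G85R libraries lay above both wild-type ones in 18 of the 42, against 17.3% of all tested genes. They lay below both in 4, a direction for which the share of all tested genes was not counted. The median difference of the 42 was 0.15, beside −0.02 for all tested genes. Both called genes were J proteins of the cytosol. Dnaja1, a farnesylated J protein, was at an RPKM of 23.1 and 18.4 in wild-type against 39.0 and 38.4 in G85R, and it rose by 0.91 (SE 0.13, limma adjusted p = 0.048). Dnajb1, the heat-inducible Hsp40, was at 42.8 and 48.0 in wild-type against 81.0 and 72.3 in G85R, and it rose by 0.75 (SE 0.11, limma adjusted p = 0.049). Neither genotype overlapped the other in these genes, but both calls lay close to the threshold and were lost together with no minimum RPKM, with a minimum of 5, with quantile normalization, with eBayes without trend and without G85R replicate 1. Only Dnaja1 was called without wild-type replicate 1, and only Dnajb1 without wild-type replicate 2. Among the partners, only the promoters of the 2 called genes were searched for heat shock elements. Of the 3 promoters of Dnaja1 in the RefSeq table, 1 holds a facing pair, 124 to 117 bases before the start. Such a pair is present in 15.1% of all promoters. The pair of Dnaja1 is shown for comparison with that of Hspa1a and Hspa1b (chr4:40669366-40669395, plus strand).
Dnaja1: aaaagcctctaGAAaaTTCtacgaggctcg
No such pair was found in the 2 promoters of Dnajb1.

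The other 10 J proteins on the list were not called, and the 12 together had a median difference of 0.24. Of the 10 nucleotide exchange factors outside the Hsp110 genes 0 were called, with a median of 0.02. Bag2, a BAG-domain factor that also restrains the ligase CHIP, had the largest difference among them at 0.39 (adjusted p = 0.31), from an RPKM of 8.10 and 8.80 in wild-type to 11.6 and 10.7 in G85R, and Bag3, the stress-inducible BAG protein of selective autophagy, had a difference of −0.18. Stip1 (Hop) and St13 (Hip) are linkers, which connect Hsp70 with Hsp90 or steady its bound state. Stip1, St13 and the ligase Stub1 (CHIP) had differences of 0.28, 0.22 and 0.16. In these 3 genes both G85R libraries lay above both wild-type ones, against 17.3% of all tested genes. Of the 3, 0 were called. As 0.642% of all tested genes were called, 0 calls in lists this short tell little about them.

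Among 5 other Hsp70 genes 0 were called, and all 5 had overlapping genotypes. Hspa5 (BiP), the Hsp70 of the endoplasmic reticulum, was at an RPKM of 187 and 172 in wild-type against 180 and 147 in G85R, a difference of −0.14, and Hspa1l had a difference of 0.12. The heat shock factors were not higher in G85R. Hsf1 was at 17.0 and 23.2 in wild-type against 14.6 and 16.7 in G85R, a difference of −0.35 (adjusted p = 0.52), and Hsf2 at −0.09. The 10 other heat shock genes, which include small heat shock proteins, Hsp90 and its helpers, and mitochondrial chaperonins, all had a positive difference, with a median of 0.24 and a range of 0.05 to 0.72, but 0 were called and 4 had an unadjusted p under 0.05 by limma. Of all tested genes 45.3% had a positive difference, and 4.66% had such a p with a higher value in G85R. The largest were those of Serpinh1, the collagen chaperone Hsp47, at 0.72, from an RPKM of 1.39 and 0.945 in wild-type to 2.12 and 1.80 in G85R, and of Hspe1, the mitochondrial cochaperonin, at 0.62, from 4.13 and 2.57 to 4.59 and 5.58. Both had low RPKM values and wide intervals, and neither passed the test (limma adjusted p = 0.36 and 0.42). Windows that match a further place in the genome were searched only for the family members, so shared reads were not examined for these genes.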

How the data were processed

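RNA was sequenced from laser-captured motor neuron cell bodies of 2 wild-type and 2 G85R mice, as polyA RNA in single-end reads of 75 bases. The authors mapped the reads with Bowtie 0.12.3 to mm9 and to splice junctions of UCSC Known Genes and quantified each gene cluster with Cufflinks, and the deposited values are RPKM, given as calculated and again with 1 read added to each gene. How reads that match several places were treated is not given in the sources used here.

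The difference between the 2 deposited columns gave the RPKM of 1 read, and dividing by it gave estimated reads. These are not counts, so no counting intervals were computed. The genotype difference was fitted by limma 3.58.1 (R 4.3.3, functions lmFit and eBayes with trend) to log2(RPKM + 0.1) of 11530 genes whose RPKM averaged 1 or more, with Benjamini-Hochberg adjustment over all of them. Where a symbol had several entries, that with the highest mean RPKM was used. Ratios were tested by exact permutation. With 1 mouse per library, the limma p-values cover the spread between 2 animals of each genotype. The log-linear test pools the 2 libraries of a genotype, so its p-values do not cover that spread.

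Windows of 75 bases were searched in NCBIM37 with BLAST+ 2.17.0. Promoter sequences came from RefSeq (GRCm38.p6) and were placed on NCBIM37 only by exact match. The named partners were the called genes and the 2 with the largest absolute difference in each list. Members, lists and tests were chosen with earlier results of these data known. Alternatives were pseudocounts of 1 and 0.01, minimum mean RPKM of 0, 0.1 and 5, median ratio and quantile scaling, a replicate block, eBayes without trend or robust, leaving out each library, an adjusted p under 0.1, summed entries, and the study's log-linear likelihood ratio test, run as a Poisson model on rounded RPKM with 1 read added. The limma fit was tested on simulated data. The qRT-PCR and splicing measurements were not analysed here.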

Additional observations from a re-analysis of the deposited data

How the results depend on the processing

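The number of members called was 1 (Hspa1b). It was 0 with no minimum RPKM and 0 with a minimum mean of 5, where Hspa1a and Hspa1b were not tested, 2 with robust eBayes (Hspa1a and Hspa1b), 2 with the log-linear test (Hspa8 and Hsp110), 3 at an adjusted p under 0.1 (with Hspa1a and Hsp110), and 1 to 2 when each library was left out, Hspa8 being added without G85R replicate 1. With the replicate block it was 5 (Hspa1a, Hspa1b, Hspa2, Hspa8 and Hsp110), with adjusted p = 0.0093 for Hspa1a (0.98) and 0.0026 for Hsp110 (0.57). The numbers name no shared litter or day, and the block raised the calls over all genes from 74 to 527. The deviations of same-numbered libraries from their genotype means correlated at 0.220 over the tested genes. With 2 libraries per genotype, the deviations of replicate 2 mirror those of replicate 1, so both pairs give the same value.

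For Hspa1b the adjusted p was 0.30 with no minimum (difference 1.88) and 1 with the log-linear test (1.94), which uses rounded RPKM and so has little power for low genes by construction. Hspa1a passed with robust eBayes (0.98, adjusted p = 0.041). The sum of Hspa1a and Hspa1b also passed (1.40), but it includes Hspa1b, which was called alone. Hsp110 passed with the log-linear test (0.57, adjusted p = 2.5e-05). That test pools the 2 libraries of a genotype and treats RPKM as counts, so its p-value does not cover the spread between animals. Over the libraries left out, the differences ranged from 0.47 to 0.68 for Hsp110, 0.92 to 1.03 for Hspa1a and 1.70 to 2.06 for Hspa1b. The small differences of Hspa4 (−0.019 to 0.10), Hspa4l (−0.0017 to 0.16) and Hspa13 (−0.27 to 0.13) changed sign over these libraries. Partner genes called numbered 2 (Dnaja1 and Dnajb1), 4 with the replicate block, 1 with a pseudocount of 0.01 or the log-linear test, and 0 with no minimum, a minimum of 5, quantile normalization or eBayes without trend, and 0 to 2 when each library was left out. The ratios of Hsp110 to its paralogs kept their direction in all 7 alternatives (0.49 to 0.58 for Hspa4 and 0.44 to 0.55 for Hspa4l with 1 library left out). Over all genes the calls ranged from 17 with a minimum of 5 to 527. With a library left out, the lone library of a genotype is assumed to vary like the other genotype. Except as stated, the cause of these changes was not tested.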
